A study of Mus musculus with 12 samples.

Results

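The GTPases of immunity-associated proteins (GIMAPs) were followed through RNA sequencing of cultured mouse B cells. Their genes were taken by symbol from the deposited tables, which held Gimap1, Gimap3, Gimap4, Gimap5, Gimap6, Gimap7, Gimap8 and Gimap9, 8 of the 23973 genes listed in both tables. The family had been picked with its values for T58A against WT in IL7 cultures known, so those values are given below as a description: calls made in that contrast are counted, but they support nothing. The values in LPS cultures were tested. T58A is a point mutation in MYC that replaces the threonine at which phosphorylation marks the protein for degradation, and WT mice were littermates. Marrow B cells of T58A and of WT mice were grown for 48 h with IL7, a cytokine that sustains B cell precursors. Splenic B cells of T58A and of WT mice were kept in LPS, a component of bacterial walls that makes mature B cells divide and secrete antibody, for the same time. There were 3 libraries in each of these 4 groups. The labels give no age, and no further allele. The titles number the IL7 libraries as pairs of a T58A and a WT culture. In the LPS data the same column header appears over a pair of T58A libraries, so their pair numbers are unknown, and they are named by position as the first unnumbered and the second unnumbered library.

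GIMAPs are GTP-binding proteins found mainly in lymphocytes, with a nucleotide-binding domain that opens with the P-loop, a glycine-rich stretch that holds the phosphates of GTP. Several of them sit on membranes of the endoplasmic reticulum, Golgi, mitochondria, lysosomes or lipid droplets, and they are known for keeping resting lymphocytes alive. Loss of Gimap5 in mice and rats depletes peripheral T cells, and loss of Gimap1 in mice depletes mature T and B cells.

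The 8 genes form 1 cluster on mouse chromosome 6 (GRCm38), chr6:48647234-48770851, 123.6 kb long, in the order Gimap8, Gimap9, Gimap4, Gimap6, Gimap7, Gimap1, Gimap5 and Gimap3. In the GENCODE M21 annotation 6 lie on the plus strand and 2, Gimap6 and Gimap3, on the minus strand, and no other protein-coding gene of the tables lies between them. That annotation also holds a transcript overlapping Gimap7, Gimap1 and Gimap5 (Gm28053) and a gene that overlaps Gimap1 (Gimap1os), neither of which was a row of the tables. The library kit does not mark strand, so reads of Gimap1 and of Gimap1os cannot be told apart. The longest open reading frame of Gimap8 held 3 P-loop motifs, and that of each of the 7 other members held 1.

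Gimap3 and Gimap5 are the closest copies, and the stretch that begins at their P-loop is shown because it bears on how reads can be assigned. It runs from base 85 to base 204 of the open reading frame of Gimap3 and from base 97 to base 216 of that of Gimap5. Capitals mark the 3 of 120 bases at which they differ (GENCODE M21, GRCm38).
Gimap3: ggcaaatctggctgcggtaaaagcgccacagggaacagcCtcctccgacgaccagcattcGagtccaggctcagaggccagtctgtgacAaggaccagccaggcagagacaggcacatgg
Gimap5: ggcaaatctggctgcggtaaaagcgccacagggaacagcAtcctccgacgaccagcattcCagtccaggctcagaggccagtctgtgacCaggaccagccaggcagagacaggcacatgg
Over 898 aligned bases the open reading frames were 90.3% identical, whereas the other pairs of members had from 55.9% to 73.9% identity. Of all 50-base windows in the exons, 190 were shared by Gimap3 and Gimap5, which is 7.52% of those of Gimap3 and 4.53% of those of Gimap5. No other pair of members shared any. The read length is not given in the sources used here, and values of Gimap3 and Gimap5 are uncertain to the extent that reads fell in the shared windows.

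Promoters are shown for Gimap6 and Gimap8, 2 of the members with lower values in every T58A library of the IL7 cultures. The windows reach from 250 bases before to 50 bases after the RefSeq start (GRCm38.p6), 5′ to 3′ on the strand of the gene, chr6:48708195-48708494 (minus strand) for Gimap6 and chr6:48646984-48647283 (plus strand) for the first of the 2 Gimap8 windows. Capitals mark GGAAGT, the core motif of ETS factors.
Gimap6 promoter: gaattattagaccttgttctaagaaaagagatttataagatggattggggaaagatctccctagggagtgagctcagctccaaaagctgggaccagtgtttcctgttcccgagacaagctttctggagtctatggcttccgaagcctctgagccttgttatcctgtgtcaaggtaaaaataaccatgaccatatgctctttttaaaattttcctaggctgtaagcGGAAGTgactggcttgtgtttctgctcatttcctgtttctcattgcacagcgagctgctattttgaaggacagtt
Gimap8 promoter: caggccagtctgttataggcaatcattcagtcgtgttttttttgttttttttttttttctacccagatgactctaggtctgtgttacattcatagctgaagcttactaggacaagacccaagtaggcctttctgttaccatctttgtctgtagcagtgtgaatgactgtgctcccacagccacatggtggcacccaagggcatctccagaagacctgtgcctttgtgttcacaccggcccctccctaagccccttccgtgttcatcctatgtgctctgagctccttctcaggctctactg
Searched on both strands, GGAAGT was in the windows of 4 of 8 members (Gimap1, Gimap5, Gimap6 and Gimap9) and in 23.8% of 32851 RefSeq windows of the same length. The RUNX core TGTGGT was in those of 3 of 8 (Gimap1, Gimap4 and Gimap7) and in 16.8% of all windows. CACGTG, the E-box bound by MYC with MAX, was in 0 of 8, against 7.15% of all windows. No match overlapped another in a member. These are letter matches within a short window and not sites of binding.

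Depth, as reads assigned to genes, was 5110746 to 9332410 in LPS and 8486753 to 10201113 in IL7 libraries. Values are normalised reads, the authors' read counts divided by 1 size factor per library, and 3 reads correspond to 2.15 to 4.12 of them. As a check of the labelled cells, precursor B cell markers such as Rag1, Vpreb1 and Igll1 summed to 20493 to 23289 normalised reads in T58A and 21891 to 27319 in WT of the IL7 cultures, and to 696 to 882 in T58A and 674 to 795 in WT of the LPS cultures. By Xist and the Y-linked genes, all T58A libraries and WT 3 of both cultures were male and WT 1 and WT 2 were female, so only pair 3 is of 1 sex. IL7 WT 2 stood apart. It had 42.6 normalised reads of Y-linked Ddx3y, against 0 in the other female IL7 library, WT 1, and 611 of Igj, the antibody joining chain of plasmablasts, against 89.1 in WT 1 and 104.6 in WT 3. Set against each of the 4 male LPS libraries, its Y-linked reads equalled a share of 3.28% to 4.41% of that library's values, and its excess of Igj a share of 0.646% to 3.97%. The estimates lay closest for the second unnumbered T58A library (4.18% from Y-linked genes and 3.97% from Igj). Results of the IL7 cultures are therefore also given without pair 2.

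In IL7 cultures all 8 GIMAP genes had a lower mean in T58A, and the size of the difference varied widely within the family. Gimap3, Gimap8 and Gimap6 were lower in every T58A library than in any WT library. The other 5 members overlapped between the genotypes. In bulk RNA, fewer cells of a type and less RNA per cell cannot be told apart.

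Gimap8, whose protein carries 3 GTPase domains, had 86.1, 55.8 and 58.02 normalised reads in T58A 1, 2 and 3, against 206, 161 and 130 in WT 1, 2 and 3. All T58A libraries lay below all WT libraries. The log2 change, T58A minus WT on the scale of log2(value + 1), was −1.30 ± 0.15 (SE, n = 3 pairs), and without pair 2 it was −1.20 ± 0.20.

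Gimap3, which lies at the other end of the cluster and has been placed with Gimap5 in T cell survival in mice, had 89.3, 37.2 and 58.02 normalised reads in T58A 1, 2 and 3, against 159, 332 and 162 in WT 1, 2 and 3. Pair 2 held both the lowest T58A value and the highest WT value. The log2 change was −1.80 ± 0.36 over all pairs and −1.14 ± 0.22 without pair 2, so the fold, T58A over WT, was 0.287 with that pair and 0.453 without it.

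Gimap6, whose human protein binds an ATG8 family protein and has been tied to autophagy, had 512, 437 and 559 normalised reads in T58A 1, 2 and 3, against 812, 804 and 777 in WT 1, 2 and 3. The WT libraries were close to each other, at 798 ± 18.2 (SD, n = 3), and the T58A libraries averaged 503 ± 61.6 (SD, n = 3). The log2 change was −0.67 ± 0.09, and −0.57 ± 0.11 without pair 2.

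Gimap1, the member on which mature B cells depend in mice, had the highest normalised reads of the family in IL7 cultures. Its values were 678, 662 and 929 in T58A 1, 2 and 3, against 981, 821 and 1064 in WT 1, 2 and 3. Each T58A library was below the WT library of its pair, although T58A 3 exceeded WT 2. The log2 change was −0.35 ± 0.09, and −0.36 ± 0.11 without pair 2.

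The other members differed less. Gimap4, which affects apoptosis of T cells, averaged 435 ± 69.3 normalised reads in T58A and 542 ± 151 in WT (SD, n = 3 each), and its log2 change was −0.29 ± 0.10, and −0.24 ± 0.13 without pair 2. Gimap9 averaged 388 ± 29.6 in T58A and 453 ± 54.0 in WT, with a log2 change of −0.22 ± 0.09, and −0.27 ± 0.12 without pair 2. Gimap5, at 187, 144 and 230 in T58A 1, 2 and 3 against 228, 222 and 228 in WT 1, 2 and 3, was nearly equal between the genotypes in pair 3 and had a log2 change of −0.30 ± 0.14, and −0.14 ± 0.16 without pair 2. Gimap7 had the fewest reads, 42.0 ± 7.12 in T58A and 50.1 ± 17.1 in WT (SD, n = 3 each), and a log2 change of −0.21 ± 0.22, and −0.08 ± 0.30 without pair 2, both within their error.

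**Figure D1:**
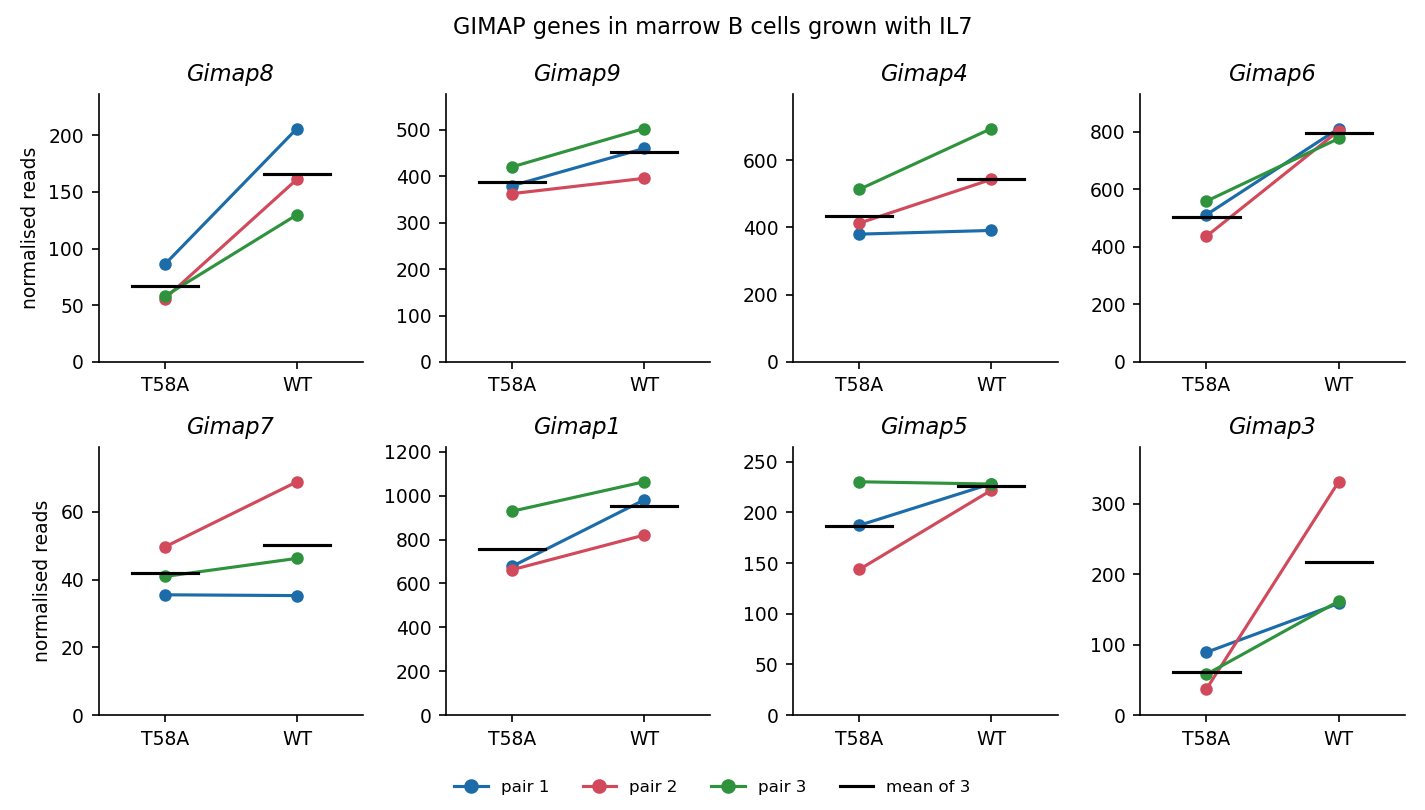
Normalised reads of each GIMAP gene (vertical axes, from 0) in T58A and WT libraries of marrow B cells grown with IL7, in the order of the cluster. Points are libraries, lines join the libraries of a pair, and black bars are means of 3. Gimap8, Gimap6 and Gimap3 are lower in every T58A library than in any WT library, and WT 2 stands high for Gimap3.

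By limma with the pair as a block and a Benjamini-Hochberg adjusted p under 0.05 over all genes tested, 4 of 8 members were called lower (Gimap1, Gimap3, Gimap6 and Gimap8) and 0 higher. The background was 6.31% of 11604 genes called lower. Since this contrast chose the family, nothing is read from that count. edgeR (background 6.5%) and DESeq2 (4.68%) with the block also called 4 members lower. Groups without overlap, T58A below WT, were found for 3 of 8 members and for 10.8% of all genes tested, and T58A above WT for 0 of 8 members and 12.9% of all genes. Without the block limma called 0% of 11604 genes and no member, while 1960 genes had an unadjusted p under 0.05. DESeq2 without the block called 310 genes, with 3 members lower at a background of 1.24%. Without pair 2 the fit with the block called 3 members lower (Gimap3, Gimap6 and Gimap8), at a background of 3.71%. In the authors' deposited table (DESeq2), the adjusted p was 4.47e-05 for Gimap6, 5.99e-05 for Gimap8, 0.050035 for Gimap1 and 0.0685 for Gimap3. Those of Gimap1 and Gimap3 were not under 0.05. The deposited log2 fold changes were −0.59 for Gimap6, −0.86 for Gimap8, −0.31 for Gimap1 and −0.43 for Gimap3, each smaller in size than the change given above. The DESeq2 fit that came within 1% of 94.0% of the authors' p-values used shrunken coefficients, which are pulled toward 0. The changes given above are not shrunken, so the sizes are not on a like footing.

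Read pair by pair, 7, 8 and 7 of the 8 members were lower in T58A in pairs 1, 2 and 3, with median log2 differences of −0.41, −0.54 and −0.35. Over all pairs the log2 change was negative for 8 of 8 members and for 51% of all genes tested. The median change was −0.32 for the members and −0.01 for all genes. In pair 3, the male pair, the fold, T58A over WT, was 0.362 for Gimap3, 0.451 for Gimap8 and 0.720 for Gimap6. A fit with the block and sex as a further term takes its estimate from that pair alone, so it gives the same differences, with 1 residual degree of freedom. It called no member, and of all 11604 genes tested only 29 lower and 13 higher. Its log2 changes were −1.46 ± 0.58 for Gimap3, −1.15 ± 0.29 for Gimap8 and −0.47 ± 0.16 for Gimap6. Summed over the family, RPM (reads scaled to the library total) was 251, 230 and 294 in T58A 1, 2 and 3, against 353, 362 and 386 in WT 1, 2 and 3. These do not overlap as deposited, and the sums of pairs 1 and 3 alone do not either.

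The LPS-culture share of IL7 WT 2 bears on members that are abundant in LPS cultures. At a share of 4.18%, taken from the second unnumbered T58A library, it would supply 245 of the 332 normalised reads of Gimap3 in that library (74.0%), 59.4% of those of Gimap7, 49.6% of those of Gimap8, 31.0% of those of Gimap4 and 28.7% of those of Gimap6. For Gimap9 it would supply 3.34%. Over the 4 male LPS libraries, each at its own Y-linked share, the amount for Gimap3 was 199 to 245. The shares estimated from Igj, 0.646% to 3.97%, were lower for each of these libraries and would give smaller amounts, so the range is not the full uncertainty. With the 4.18% taken off and the rest scaled back to the full library, WT 2 had 89.8 normalised reads of Gimap3 and 84.7 of Gimap8, next to 89.3 and 86.1 in T58A 1, the highest T58A library for both. Gimap8 then overlapped between the genotypes, as did the sum of the family, which fell to 276 RPM in WT 2, under the 294 of T58A 3. The log2 changes became −1.18 ± 0.18 for Gimap3, −0.998 ± 0.18 for Gimap8 and −0.53 ± 0.08 for Gimap6, that of Gimap4 became −0.13 ± 0.11 (−0.29 as deposited), and that of Gimap7 turned to 0.19 ± 0.26. This fit called 3 members lower, at a background of 4.69%.

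**Figure D2:**
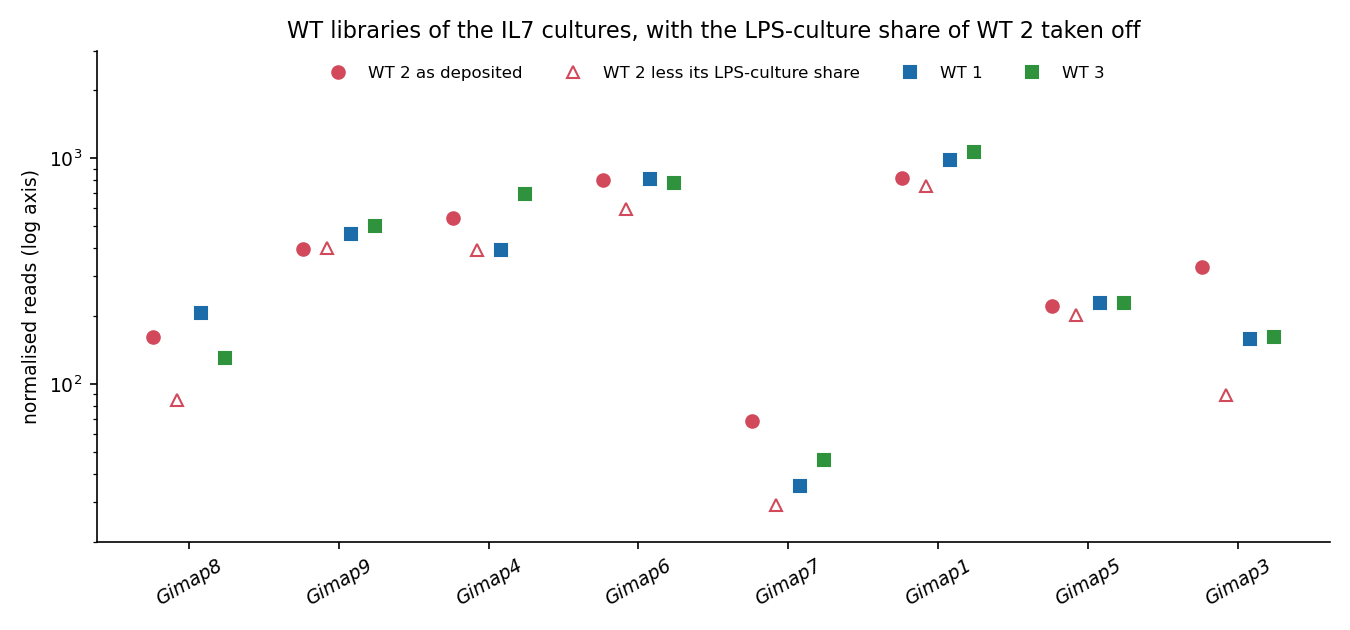
Normalised reads (log axis) of each GIMAP gene in the WT libraries of the IL7 cultures: WT 2 as deposited (filled circles), WT 2 less its LPS-culture share of 4.18% (open triangles), WT 1 and WT 3 (squares). Gimap3 in WT 2 is 332 as deposited and 89.8 with the share taken off, and Gimap9 stays in place.

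Lists of other genes were counted in the IL7 cultures with the same fit, at the background of 6.31% lower and 6.41% higher and a median log2 change of −0.01 over all genes. The lists were chosen with earlier results of these data known, so their counts are a description and nothing is read from them. The background of genes called lower was 3.71% without pair 2, and only 29 of 11604 genes with sex as a term. None of their calls remained without the block, where 0% of 11604 genes were called. Of 12 tested genes of resting lymphocytes, 9 were lower and 0 higher, with a median log2 change of −0.61, and without pair 2 the count lower was 8, while with sex as a term it was 1. Slfn2, a Schlafen gene of quiescent T cells, averaged 706 ± 173 normalised reads in T58A and 1617 ± 299 in WT (SD, n = 3 each), a log2 change of −1.21 ± 0.09. S1pr1, the receptor by which lymphocytes leave tissues, changed by −1.06 ± 0.10, and Btg1, an antiproliferative gene, by −0.85 ± 0.09. Of 12 tested interferon-induced GTPases of the GBP, IRG and Mx families, which also bind GTP on membranes, 7 were lower and 0 higher, with a median of −0.54, and without pair 2 the count lower was 4, while with sex as a term it was 0. Gbp3 changed by −0.58 ± 0.07, Gbp2 by −0.76 ± 0.10 and Gbp8 by −1.22 ± 0.22 on the log2 scale.

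Partners reported for GIMAP proteins were counted the same way. In the BCL2 family, with which Gimap3 and Gimap5 have been linked, 3 of 7 genes were lower and 0 higher, with a median of −0.11, and without pair 2 the count lower was 2. Mcl1, a survival protein, changed by −0.39 ± 0.07, Bcl2l1, which encodes BCL-XL, by −0.52 ± 0.09 and Bcl2l11, which encodes the death-promoting BIM, by −0.30 ± 0.07. In the ATG8 family of autophagy 1 of 5 was lower, Gabarap at −0.36 ± 0.10, and Map1lc3b (−0.35 ± 0.11) and Map1lc3a (−0.51 ± 0.27) did not pass. The median of that list was −0.35, and without pair 2 none of its genes was called. Of Gsk3a, Gsk3b and Ctnnb1, tied to Gimap5 in T cells, none passed, with log2 changes of −0.03 ± 0.07, 0.14 ± 0.09 and 0.18 ± 0.06. In LPS cultures none of these 5 lists had a gene called, at a background of 0% of 11291 genes, and their medians lay between −0.30 and 0.02.

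Markers of other cell states moved in the same cultures. The background for the marker lists over all pairs was 6.31% of genes called lower and 6.41% higher. Of 14 mature B cell markers, 11 were lower and 0 higher in T58A of the IL7 cultures, and their summed normalised reads were 20954, 12821 and 8138 in T58A 1, 2 and 3, against 43013, 23768 and 13322 in WT 1, 2 and 3. Each T58A library was below the WT library of its pair, while the sums of the genotypes overlapped. Without pair 2, 10 were lower, at a background of 3.71%. With the LPS-culture share taken off WT 2, 8 were lower, at a background of 4.69%. Without the block none of the 14 was called, at a background of 0% of 11604 genes. With sex as a term 3 were lower, in a fit that called only 29 of 11604 genes lower. Of 8 precursor B cell markers, 2 were lower and 0 higher. Their part in the GIMAP values was not tested. Among T cell markers, Cd3d, Cd3e, Cd3g, Cd4, Cd8a, Cd8b1, Trat1 and Themis had at most 10 reads in any IL7 library and Themis had 0 in all. The T cell list summed to 1451 to 1735 normalised reads in T58A and 1040 to 1553 in WT, carried by Lat and Ubash3a, and 1 of its 3 tested genes was called, higher. The NK and innate lymphoid list summed to 26.6 to 47.5 in T58A and 61.7 to 95.6 in WT, with 1 of 1 tested gene lower and Gzma at 0 in all. Without pair 2 no gene of the T cell list or of the NK list was called. Myeloid markers summed to 437 to 884 in T58A and 603 to 1870 in WT, with none of 8 called over all pairs and 4 lower without pair 2. Endothelial and stromal markers summed to 519 to 832 in T58A and 731 to 1227 in WT, with 1 of 1 tested gene lower. Plasmablast markers summed to 9078 to 9592 in T58A and 8794 to 10170 in WT, with 1 of 6 higher and 1 lower. Stem and progenitor markers summed to 424 to 658 in T58A and 373 to 673 in WT, with none of 2 called. In LPS cultures no marker of these lists was called, at a background of 0% of 11291 genes. The part of these cells in the GIMAP values was not tested either.

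The values of genes next to the cluster were mixed in direction. Of the 5 nearest protein-coding genes of the tables on each side, 7 were tested and only Repin1, a zinc finger gene 48.2 kb before Gimap8, was called in the IL7 cultures, where it was higher, with 701 ± 46.1 normalised reads in T58A and 557 ± 71.0 in WT (SD, n = 3 each; log2 change 0.34 ± 0.08). Its call was lost without pair 2, without the block, with sex as a term, with DESeq2 and with any of the IL7 libraries left out. Zfp775, 24.0 kb before Gimap8, had a log2 change of −0.05 ± 0.13, and Tmem176b, 63.0 kb beyond Gimap3, one of 0.08 ± 0.14. None of the 7 was called in LPS cultures, where 0% of 11291 genes were called. Within the cluster the members at its ends, Gimap8 and Gimap3, had the largest log2 changes, and Gimap6 in the middle came next.

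**Figure D3:**
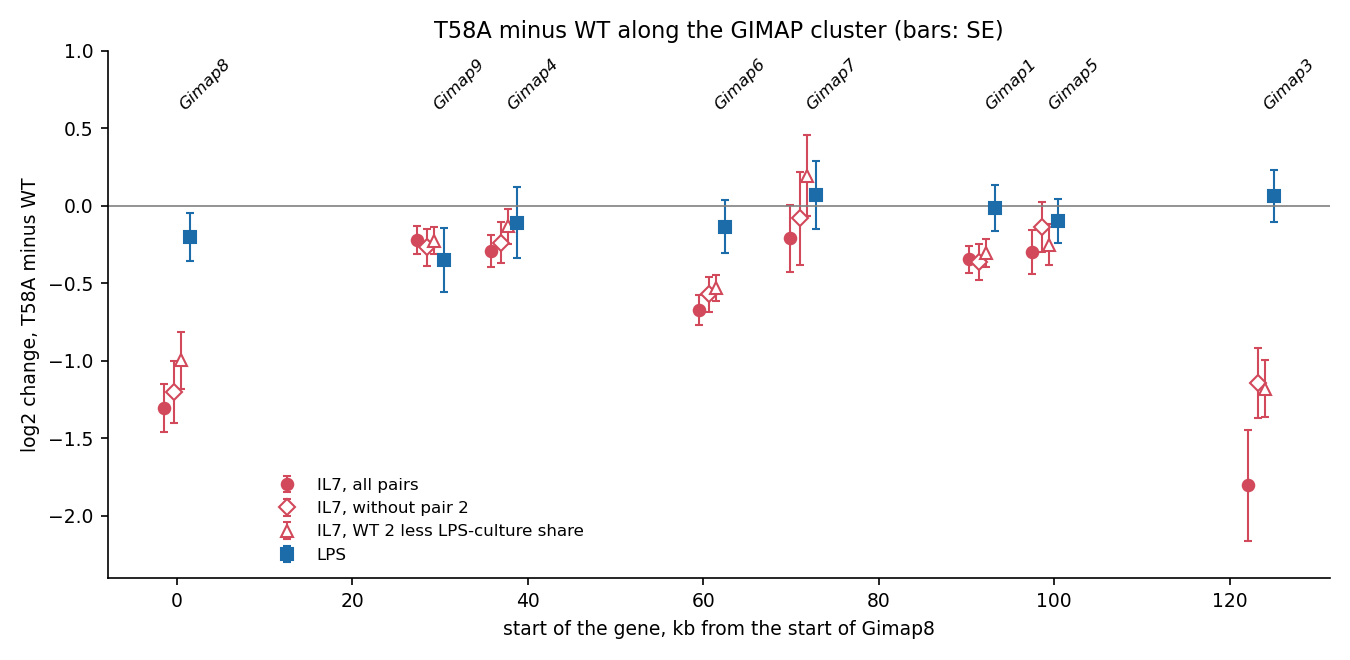
Log2 change, T58A minus WT, of each GIMAP gene against its start in kb from the start of Gimap8. Red marks are IL7 cultures with all pairs (circles), without pair 2 (diamonds) and with the LPS-culture share taken off WT 2 (triangles), blue squares are LPS cultures, and bars are SE. Gimap8 and Gimap3 at the ends reach −1.30 and −1.80 in IL7 cultures, and in LPS cultures all members lie between −0.35 and 0.07.

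In LPS cultures no GIMAP gene passed the test between the genotypes, and the libraries of T58A and WT overlapped for each. By limma over the 6 LPS libraries 0 of 8 members passed an adjusted p of 0.05, at a background of 0% of 11291 genes. Over all genes 284 had an unadjusted p under 0.05, edgeR called 0 and DESeq2 called 1. The adjusted p was 0.99998 for every member, and over the alternatives tried the lowest was 0.143, for Gimap9. Of 8 members 6 had a negative log2 change, as had 47.6% of all genes. Groups without overlap were found for 0 of 8 members, while 3.3% of all genes were lower and 3.1% higher in T58A without overlap.

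Gimap8 had 1846, 1386 and 1653 normalised reads in the first unnumbered, the second unnumbered and the third T58A library, against 1967, 1738 and 1880 in WT 1, 2 and 3. The first unnumbered library lay among the WT libraries. The fold, T58A over WT, was 0.870 with a 95% confidence interval of 0.680 to 1.11.

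Gimap3 had 4480, 4249 and 3670 normalised reads in the same T58A libraries, against 3896, 4499 and 3500 in WT 1, 2 and 3, and neither genotype was on one side. Its fold was 1.04 with an interval of 0.804 to 1.36.

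Gimap6 had 5331, 4001 and 4451 normalised reads in the T58A libraries, against 5423, 4685 and 4958 in WT. The first unnumbered library was again near the highest WT library, and the fold was 0.910 (95% confidence interval 0.698 to 1.19).

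Gimap9 had the largest difference in LPS cultures, 266 ± 46.3 normalised reads in T58A and 341 ± 68.3 in WT (SD, n = 3 each), with a fold of 0.785 and an interval of 0.571 to 1.08. The pairing of the unnumbered libraries is not known. With the first of them joined to WT 1 as a block, the log2 change of Gimap9 was −0.35 ± 0.10 (adjusted p = 0.143, limma), and with it joined to WT 2 it was −0.35 ± 0.23 (adjusted p = 0.99998, limma). Gimap4 averaged 4189 ± 1181 in T58A and 4414 ± 560 in WT, and its interval, 0.646 to 1.33, was among the widest. Gimap1, at 1595 ± 122 in T58A and 1611 ± 159 in WT, had a fold of 0.991 (0.786 to 1.25). The fold was 0.935 (0.750 to 1.17) for Gimap5 and 1.05 (0.743 to 1.48) for Gimap7. These intervals still hold differences of the sizes given, so a missing call does not establish equal levels. Whether the difference between T58A and WT itself differed between the cultures was not tested, because the family had been chosen on the IL7 values.

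**Figure D4:**
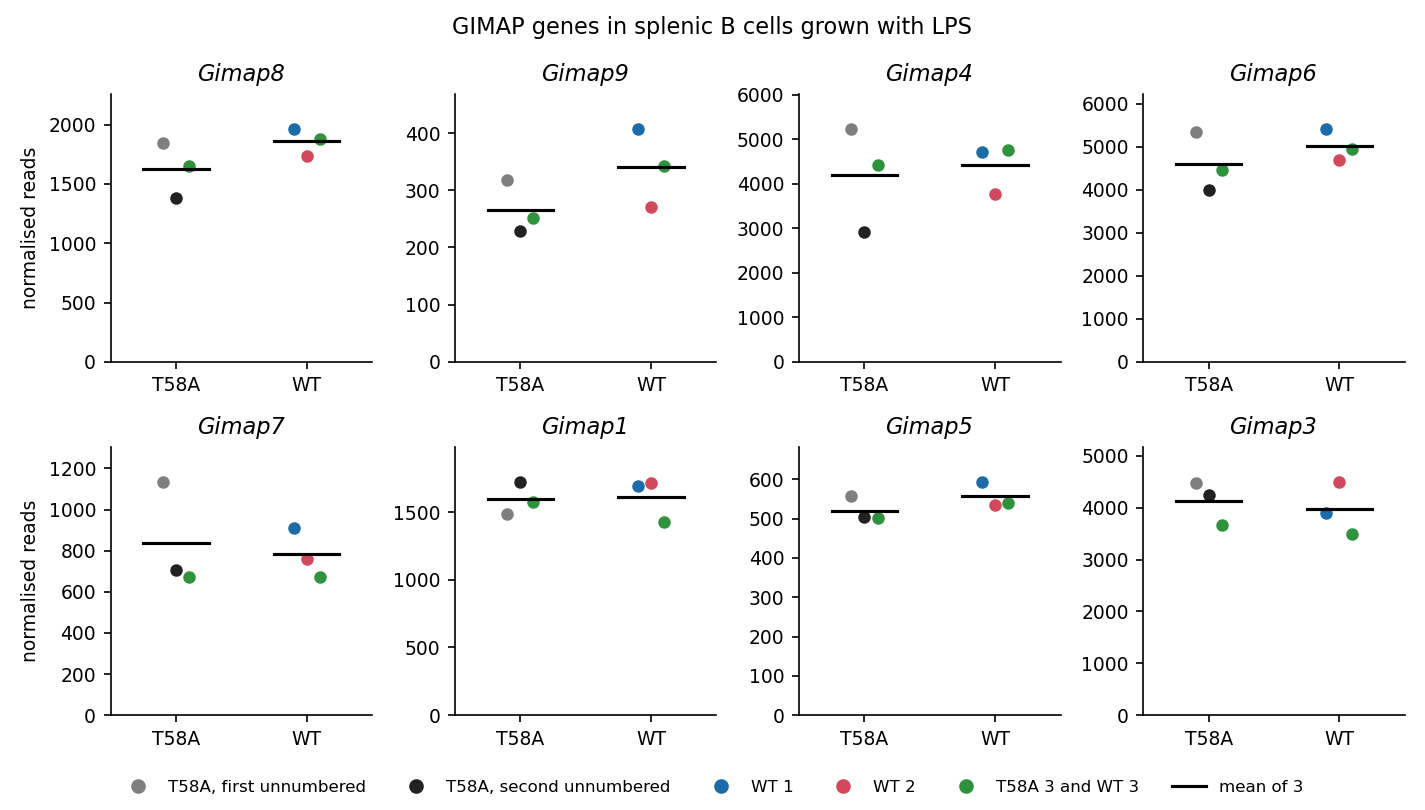
Normalised reads of each GIMAP gene (vertical axes, from 0) in T58A and WT libraries of splenic B cells grown with LPS, in the order of the cluster. Points are libraries and black bars are means of 3. The T58A and WT libraries overlap for all 8 genes.

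Most GIMAP genes were far more abundant in LPS-grown splenic cells than in IL7-grown marrow cells, in RPM. Tissue, stimulus and table change together here, so this is a description. In WT, Gimap3 had 578 ± 84.4 RPM in LPS cultures and 23.4 ± 10.8 in IL7 cultures (SD, n = 3 each), a ratio of 24.7. The ratio was 21.1 for Gimap7, 15.2 for Gimap8, 11.0 for Gimap4, 8.50 for Gimap6, 3.33 for Gimap5 and 2.28 for Gimap1. Gimap9 was alone in having about the same level, with a ratio of 1.01. Without WT 2 in the IL7 mean the ratio of Gimap3 was 33.6 and that of Gimap7 26.0, and with the LPS-culture share taken off WT 2 they were 39.3 and 28.7. In T58A, whose IL7 libraries had 21.9 to 81.8 normalised reads of Igj, the ratios were 93.4 for Gimap3, 33.9 for Gimap8, 27.8 for Gimap7, 13.4 for Gimap4, 12.7 for Gimap6, 3.87 for Gimap5, 2.94 for Gimap1 and 0.955 for Gimap9. The family as a whole summed to 2348 to 2990 RPM in T58A and 2626 to 2792 in WT of the LPS cultures.

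Per length, as RPKM (RPM per kb of exon), the order of the members also differed between the cultures. In LPS cultures of T58A, Gimap4 (335 ± 91.8) was followed by Gimap3 (236 ± 25.0), Gimap6 (194 ± 27.1), Gimap1 (76.6 ± 6.69), Gimap8 (64.8 ± 8.60), Gimap7 (53.1 ± 16.1), Gimap9 (23.9 ± 4.00) and Gimap5 (18.5 ± 1.07). The libraries of Gimap4, Gimap3 and Gimap6 overlapped from one to the next, as did those of Gimap1, Gimap8 and Gimap7. In LPS cultures of WT the order was the same, from 349 ± 37.6 for Gimap4 to 19.5 ± 0.76 for Gimap5, and only Gimap3 with Gimap6 and Gimap1 with Gimap8 overlapped as neighbours.

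In IL7 cultures of T58A, Gimap1 (26.0 ± 4.82), Gimap4 (25.1 ± 3.66) and Gimap9 (25.0 ± 1.65) led and overlapped. Gimap6 (15.2 ± 1.76) stood apart from its neighbours. Gimap5 (4.77 ± 1.06), Gimap3 (2.53 ± 1.10), Gimap7 (1.91 ± 0.32) and Gimap8 (1.91 ± 0.50) followed, each overlapping the next. In IL7 cultures of WT, Gimap1 (33.5 ± 4.16), Gimap4 (31.8 ± 8.73) and Gimap9 (29.7 ± 3.38) overlapped. Gimap6 (24.6 ± 0.69) lay below Gimap1 and Gimap9 but, at 23.8 to 25.1, within the range of Gimap4 (22.9 to 40.4). Gimap3 (9.10 ± 4.18) stood apart, Gimap5 (5.87 ± 0.07) overlapped Gimap8 (4.83 ± 1.13), and Gimap7 (2.32 ± 0.80) was lowest. With the LPS-culture share taken off WT 2, Gimap3 ranged from 3.77 to 6.72 RPKM in WT and overlapped Gimap5 (5.25 to 5.94).

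**Figure D5:**
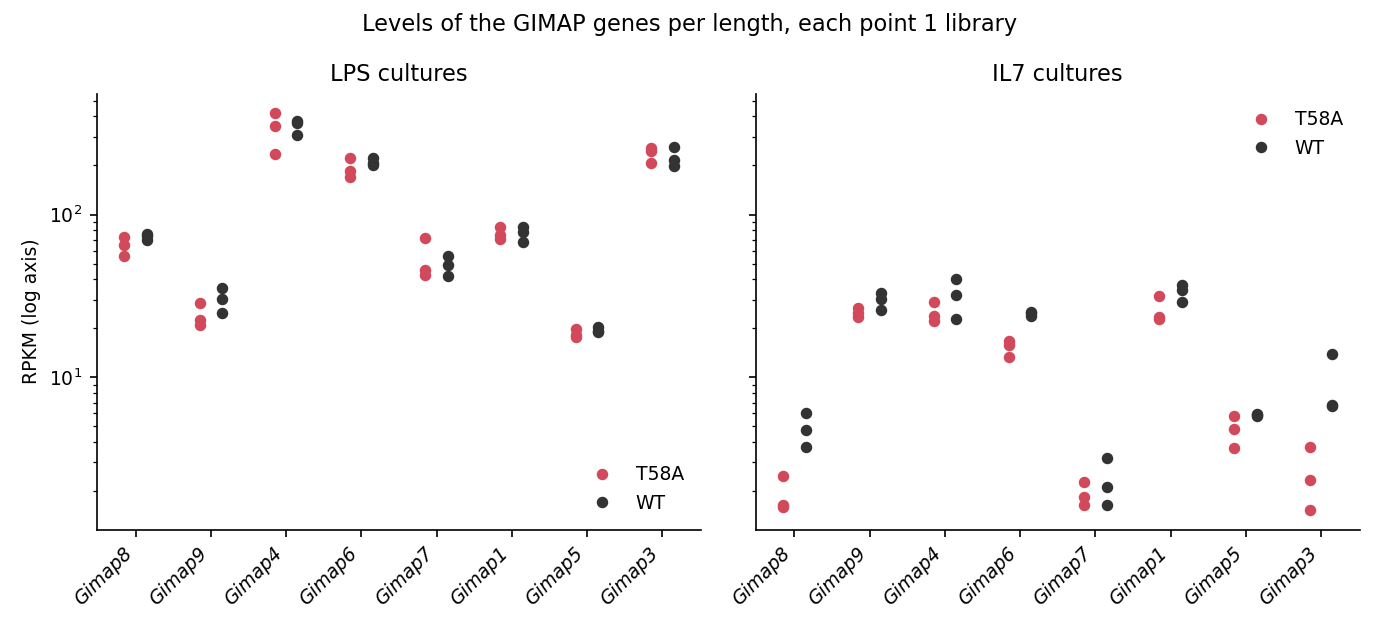
RPKM (RPM per kb of exon, log axis) of each GIMAP gene in LPS cultures (left) and IL7 cultures (right), T58A in red and WT in dark grey, each point 1 library. Gimap3, Gimap7 and Gimap8 are low in IL7 and high in LPS cultures, and Gimap9 is at about the same level in both.

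Across the 6 IL7 libraries the members followed each other unevenly. The correlation (Pearson's r, a description over libraries of both genotypes) of a member with the mean of the others was 0.98 for Gimap6, 0.88 for Gimap3 and 0.79 for Gimap8, and lowest for Gimap7 at 0.24. Across the 6 LPS libraries it was 0.97 for Gimap6, 0.92 for Gimap5 and 0.84 for Gimap8, whereas Gimap3 had −0.01 and Gimap1 −0.37. Outside the family, genes among the 10 closest to the mean of the members over the 6 IL7 libraries were BC051226, Zufsp, Man1a, Slc35d2, Rrbp1, Slc14a1, Tap1, Ctnna1 and Tmod3, with r from 0.977 to 0.995. Over pairs 1 and 3 alone, 4 libraries, 0 of the 10 were among the closest 10, although their r there was still from 0.938 to 0.997. Tap1, a peptide transporter of antigen presentation, averaged 1923 ± 66.0 normalised reads in T58A and 2543 ± 44.9 in WT (SD, n = 3 each). Over the 6 LPS libraries these genes had r from −0.62 to 0.38.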

How the data were processed

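RNA was sequenced from 12 mouse B cell cultures. Per the submitters' processing notes, bcl2fastq 1.8.4, TopHat2 2.1.0, HTSeq 0.6.1, DESeq2 and the build mm10 were used, and the annotation is not given in the sources used here. The signal that the authors deposited for a gene in a library is its number of reads over the size factor of that library, since 100% of the values gave whole reads within 0.001. Beside it stand the authors' log2 fold change, p-value and adjusted p-value. Because these are not raw counts, limma 3.58.1 (trend, R 4.3.3) was fitted to log2(value + 1), after filterByExpr of edgeR 4.0.16 (minimum count 10, minimum total 15), with adjusted p under 0.05. All 8 members passed the filter in both tables.

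The IL7 fit holds the pair as a block: the titles number the pairs, deviations of same-numbered libraries correlate at 0.41, 0.15 and 0.40, and 94.0% of the authors' p-values lie within 1% of DESeq2 1.42.0 with the pair (15.8% without it). The LPS fit has none. No label ties a library to an animal, so p-values measure only the spread between these samples, which may be technical in part. The limma fits were tested on simulated data. edgeR and DESeq2 on the recovered reads, other scalings, pseudocounts, filters, the block, sex and left-out libraries were alternatives. The fits without the block that also leave out pair 2, add sex or use DESeq2, and the one that takes the LPS-culture share off IL7 WT 2, were added after seeing the data, as were levels without WT 2. Exons and transcripts came from GENCODE M21, which may not be the authors' annotation, and open reading frames are the longest found. The members, gene lists and rules were chosen with earlier results of these data known. Beside the members, the text names the 10 genes most like their mean over IL7 libraries, the 3 with the smallest p of each list where called or nearest, 5 neighbours per side, and genes that identify libraries. Some genes that these rules take, and a marker list, are not reported here. Plots used Python 3.11.15 with matplotlib 3.10.9.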

Additional observations from a re-analysis of the deposited data

How the results depend on the processing

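In IL7 cultures the replicate block decided the calls: with it limma called 1476 genes and 4 members lower, and with no replicate block 0 genes and 0 members, as also with no block and without pair 2 (0 and 0) and with no block and sex as a term (0 and 0), while DESeq2 with no block called 310 genes. With the block, 775 genes were called without pair 2, 42 genes and 0 members with sex as a term, and 738 to 1435 genes when each library was left out in turn. In LPS cultures, where limma called 0 genes, a replicate block that joins the first unnumbered library to WT 1 gave 4 genes, DESeq2 gave 1, sex as a term gave 1, and leaving out each library gave 0 to 6. Signs of log2 changes turned for Gimap5 in IL7 cultures with sex as a term (0.014) and for Gimap7 there with the LPS-culture share taken off WT 2 (0.19). In LPS cultures they turned for Gimap1 with total-count scaling (0.0048) and with sex as a term (0.16). With each LPS library left out in turn, the log2 change ran from −0.097 to 0.039 for Gimap1, −0.024 to 0.16 for Gimap3, −0.29 to 0.13 for Gimap4 and −0.17 to 0.21 for Gimap7, crossing 0 in each, without WT 3 for Gimap3 and Gimap7, without the first unnumbered library for Gimap1 and Gimap7, without WT 1 or WT 2 for Gimap1 and without the second unnumbered library for Gimap4. The cause was not tested. Gimap1, Gimap3, Gimap4, Gimap6, Gimap8 and Gimap9 kept a negative change in IL7 cultures under all 21 alternatives. For Gimap3, Gimap6 and Gimap8 it ran from −2.29 to −1.14, −0.77 to −0.47 and −1.38 to −0.98, with calls under 17 of the 21. Several of the 21 repeat the same estimate, since with the block a left-out library takes its pair out of the estimate. The family was also chosen on this contrast, so nothing is read from these counts. Gimap3, Gimap7 and Gimap8 had low reads in IL7 cultures, which limits their precision.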
